A study of Homo sapiens with 6 samples.

Results

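Subtelomeric chromatin was examined in ATAC-seq peak lists of SK-N-AS cells, a neuroblastoma line without MYCN amplification. The members were all peaks of chromosomes 1 to 22 that lay entirely within 100000 bp of either end of the hg38 chromosome, 1490 of the 1044250 peaks in the 6 lists. Merging overlapping peaks of all lists gave 405 subtelomeric regions of 372645 regions in all, and 64 of the 405 held a peak in every list, against 6.43% of all regions.

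The study compared 3 cell populations with 2 libraries each. Naive cells had been grown from a tumor of a mouse given vehicle, and R1 and R2 cells from tumors that had relapsed under indisulam, a sulfonamide that brings the splicing factor RBM39 to the DCAF15 ubiquitin ligase for degradation. All cells were human SK-N-AS cells passed through a mouse and then cultured, with no treatment of the cultures given in the labels, before nuclei were treated with Tn5 transposase, which cuts and tags open DNA. The labels do not say whether the 2 libraries of a population came from separate cultures, so the spread between them may be technical, and each population is a single derived line. Promoters of GATA3, HAND2 and ISL1, transcription factors of adrenergic neuroblastoma, held a peak in all 6 lists, and that of the leukocyte gene PTPRC in none. The mesenchymal factors FOSL2, RUNX1, FOSL1 and PRRX1 had a peak in all 6 lists, YAP1 in 5, and the leukocyte factor SPI1 in all 6.

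Human chromosomes end in tandem copies of TTAGGG, the telomere repeat, which shelterin proteins bind and telomerase extends. Next to it lie subtelomeres, patchworks of segments copied between chromosome ends that carry families of near-identical genes and pseudogenes, before single-copy sequence begins. Reads from copied segments often cannot be placed on one chromosome, and the authors had dropped reads that fit several places equally well. In hg38 the outermost part of each chromosome is an unsequenced gap, and 9 of the 44 ends were gap throughout the window (13p, 14p, 14q, 15p, 16q, 18q, 20q, 21p and 22p), so 35 ends could hold peaks. Their windows held 2.51 Mb of sequence, 0.0909% of that of chromosomes 1 to 22. Of the 31-base words in these windows, 55.1% occurred elsewhere in hg38, against 16.6% in 2000 windows of 1000 bp sampled from the rest.

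At 16 of the 28 ends with a peak, the region with the best mean rank sat on the telomere repeat itself. The repeat runs as CCCTAA on p arms and as TTAGGG on q arms. The following sequence, 121 bases around a summit in hg38 with copies of TTAGGG in capitals, is that of the 2q tip, where the difference between R2 and naive cells was largest, and it shows the repeat passing into degenerate copies such as tcaggg.
2q tip (chr2:242183322-242183442, plus strand): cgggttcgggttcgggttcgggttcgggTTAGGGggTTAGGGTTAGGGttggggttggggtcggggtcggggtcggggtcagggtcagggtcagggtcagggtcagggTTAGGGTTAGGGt

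Other summits lay at promoters or on matches to factor motifs, and many, among them the 20p regions and the best-ranked 4q region, on neither. The next sequences are also of 121 bases. They are shown because peaks at them differed between populations (PRMT2), ranked near the top of every list (PGBD2) or ranked lowest in R2 (NPRL3). The last lay inside the annotated span of a repeated gene (DUX4). A motif match describes the letters only.
PRMT2 promoter, GC box in capitals (chr21:46635465-46635585, plus strand): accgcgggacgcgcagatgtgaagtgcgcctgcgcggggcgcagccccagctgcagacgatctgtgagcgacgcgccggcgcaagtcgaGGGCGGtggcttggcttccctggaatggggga
PGBD2 promoter, GC boxes in capitals (chr1:248906621-248906741, plus strand): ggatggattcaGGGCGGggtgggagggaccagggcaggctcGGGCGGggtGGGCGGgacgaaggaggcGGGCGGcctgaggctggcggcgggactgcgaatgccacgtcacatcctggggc
NPRL3 region, CTCF core in capitals (chr16:97005-97125, plus strand): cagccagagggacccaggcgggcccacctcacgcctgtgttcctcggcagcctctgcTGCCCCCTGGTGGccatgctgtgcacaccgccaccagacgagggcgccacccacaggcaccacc
DUX4 body at 4q, CTCF core in capitals (chr4:190177763-190177883, plus strand): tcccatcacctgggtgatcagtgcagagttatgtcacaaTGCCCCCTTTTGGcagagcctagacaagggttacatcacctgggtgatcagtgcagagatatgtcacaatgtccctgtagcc

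The double repeat, 2 direct copies of TTAGGG searched on both strands within 100 bp of the summit, was present in 24 of the 405 subtelomeric regions (5.93%) and in 37 of the 372240 other regions (0.00994%). The single repeat TTAGGG, which every double repeat also contains, was present in 14.1% against 6.52%. The core motif of the insulator protein CTCF was present in 1.98% of subtelomeric regions against 1.16% of the others, and the GC box GGGCGG in 13.3% against 11.6%. The AP-1 motif TGANTCA was present in 3.70% against 6.97%, with no match among the 38 regions nearest the tips. These shares count regions and carry no test.

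Peaks were denser near chromosome ends than elsewhere in every library. The naive libraries held 208 and 190 subtelomeric peaks, those of R1 387 and 367, and those of R2 163 and 175. Per megabase of sequence this was 83.0 and 75.8 in naive cells, against 55.8 and 41.7 in the rest of chromosomes 1 to 22. In R1 the densities were 154 and 146 against 123 and 105, and in R2 65.0 and 69.8 against 24.2 and 26.3. The ratio of the densities ran from 1.26 in R1 library 1 to 2.69 in R2 library 1. On the log2 scale the ratio was 0.85 ± 0.47 (SD, n = 6), above 0 in 6 of 6 libraries (exact sign-flip permutation test, two-sided, p = 0.03125, the smallest that 6 libraries allow, and 0.0625 after Benjamini-Hochberg adjustment over 4 measures). The 6 libraries are 2 from each of 3 derived lines. SDs and p-values over libraries, here and below, therefore do not measure the spread between independent lines.

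The libraries differed in depth. Background rates recovered from the deposited folds put R1 library 1 at 9.34 times and R1 library 2 at 6.39 times the depth of R2 library 1. On the same scale naive library 1 was at 2.69 times, naive library 2 at 1.59 times and R2 library 2 at 1.06 times. The density ratio was lowest in the 2 deepest libraries and highest in the 2 shallowest, although among the strongest 20000 peaks of each list, which makes the lists equally long, the log2 ratio was higher, 1.79 on average and between 1.42 and 2.08 over the libraries. Peaks covered 13.8% and 12.7% of the subtelomeric sequence in R1, 4.96% and 3.99% in naive cells and 3.07% and 3.23% in R2.

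Subtelomeric peaks were also strong for their list. Each peak was given its percentile rank by p-value within its own list, with 100 the strongest. The median rank at chromosome ends was 60.6 and 71.3 in naive cells, 66.3 and 65.4 in R1, and 68.7 and 69.1 in the R2 pair. It exceeded the median of the other peaks by 16.6 ± 4.57 points (SD, n = 6), in 6 of 6 libraries (exact sign-flip permutation test, two-sided, p = 0.03125, adjusted 0.0625). In the 2 R2 lists, 29.4% and 29.1% of subtelomeric peaks were in the top 10% of the list.

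In the full lists, neither promoter content nor base composition of subtelomeric peaks differed from that of the others in a constant direction across libraries. The share of peaks within 1000 bp of a transcription start was 1.55 points lower at chromosome ends on average, but higher in 4 of 6 libraries. The R1 lists had 24.3% and 27.0% at ends against 19.3% and 21.1% elsewhere, and the R2 lists 30.7% and 30.9% against 41.6% and 40.4% (mean difference -1.55 ± 7.18, SD, n = 6, exact sign-flip permutation p = 0.6875, adjusted 0.6875). GC content around summits differed by 0.267 ± 1.43 points (SD, n = 6, exact sign-flip permutation p = 0.625, adjusted 0.6875). Among the strongest 20000 peaks of each list both were lower at chromosome ends in 6 of 6 libraries, with mean differences of -27.1 points in the start share and -4.56 points in GC content (exact sign-flip permutation p = 0.03125 each).

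Chromosome ends differed widely from one another. The 16p end held the most peaks, 189 over the 6 lists or 210 per 100 kb of sequence, followed by 17q with 155, 19q with 140, 7p with 126 and 13q with 102. The shorter 4q window held 71 peaks, 178 per 100 kb. Of the sequenced ends, 7 (5q, 6p, 8p, 9q, 11p, 17p and 19p) held none in any list, and 3q and 6q held 1 peak each.

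**Figure D1:**
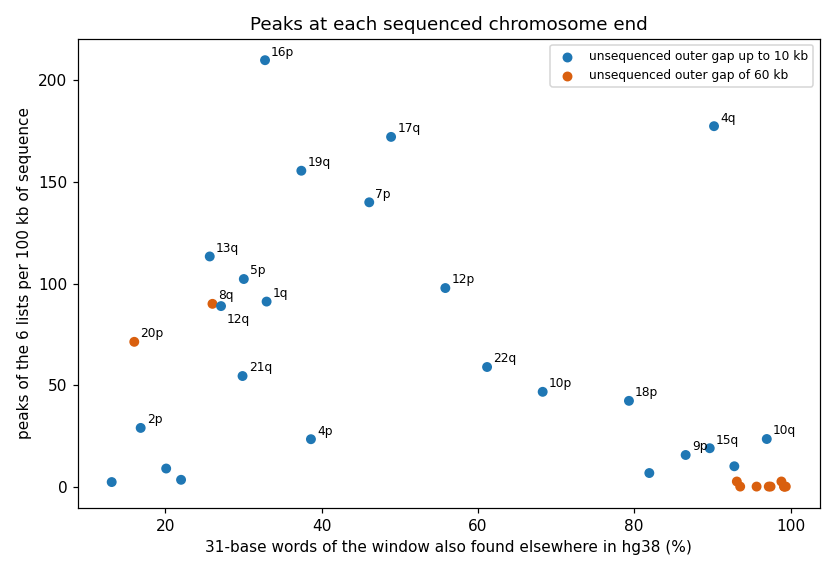
Each point is one of the 35 sequenced chromosome ends, with the share of its 31-base words found elsewhere in hg38 (horizontal, percent) against its peaks in the 6 lists per 100 kb of sequence (vertical), and orange marks ends whose outer gap is 60 kb. Most ends made almost wholly of copied sequence lie at or near 0, while 4q lies at 178, 10q at 23.4 and 1p at 10. Some ends with little copied sequence are also low, such as 11q at 2.22 and 7q at 3.33.

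Ends built of copied sequence held few peaks. Of the 12 ends with more than 90% of their 31-base words elsewhere, 7 held no peak and 3 (1p, 4q and 10q) held a peak in all 6 lists, whereas 21 of the 23 other ends held a peak in all 6 lists. Density in the first group was 18.6 to 37.2 peaks per Mb over the libraries, against 76.2 to 186 in the second. Across the 35 ends, Spearman's rho between density and the share of words elsewhere ran from -0.57 to -0.47 over the libraries, a description over ends that share the same libraries and the same mapping filter. The part of that filter in the empty ends was not tested.

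Within the windows, peaks at the tip were the highest in rank, and density had a local maximum at the tip with a trough just behind it. The outermost 10 kb of sequence held 97.3 peaks per Mb in each naive library, 166 and 155 in R1, and 94.5 and 85.9 in the R2 pair. In the next 10 kb the density was 11.4 in each naive library, 54.3 and 42.9 in R1, and 5.71 and 11.4 in the R2 pair. Farther in it rose again past that of the tip in every library, to 145 and 114 between 70 and 80 kb in naive cells, 250.0 and 214 in R1, and 127 and 118 in the R2 pair. These bins do not hold the same ends, with 349 kb of sequence in the outermost bin and 220 kb between 70 and 80 kb. Ends with an outer gap of 60 kb, including all those without a peak in any list, counted in the outer bins alone. The part of this change of ends in the rise was not tested. The median rank in the outermost 10 kb was 89.2 and 92.6 in naive cells, 87.2 and 90.8 in R1, and 98.8 and 99.3 in the R2 pair. Within 2 kb of the outermost base lay 38 regions at 25 ends, and 21 of them, 1 at each of 21 ends, held a peak in all 6 lists.

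**Figure D2:**
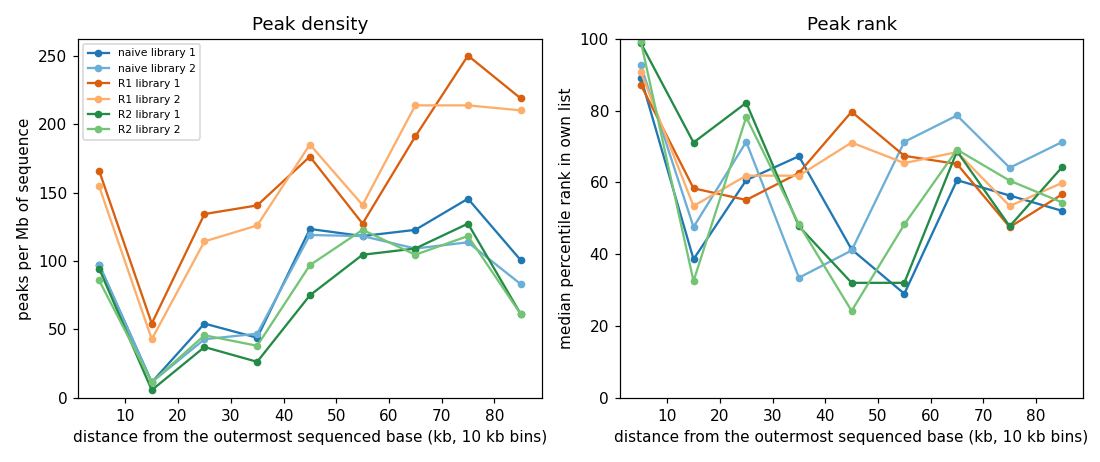
Peak density (left, peaks per Mb of sequence) and median percentile rank in the own list (right) in 10 kb bins from the outermost sequenced base, one line per library. All 6 lines have a local maximum in density in the first bin and their lowest value in the second, and every median rank in the first bin lies between 87.2 and 99.3. Bins from 40 kb inward leave out the ends with an outer gap of 60 kb.

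Regions differed in how many lists shared them. Of the 405 regions, 248 had peaks of R1 lists alone (67.2% of all regions did), 7 of R2 lists alone and 1 of a naive list alone, and 8 had no R1 peak. R1 was also the most deeply sequenced population. The median region was 415 bp wide, and 12 regions (2.96%, against 1.28% of all) were wider than 5000 bp, at 7p, 12q, 16p, 17q, 19q and 22q. The widest, 13831 bp at 16p, covered a start of RHBDF1, an inactive rhomboid protein.

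The strongest regions were inside the annotated span of the DUX4 gene (chr4:190173774-190185942) and on telomere repeats. DUX4 encodes an early embryonic transcription factor and lies in the D4Z4 repeat array of 4q. Membership in the gene was taken from the annotation alone, and whether these regions lie in that array was not examined. The region chr4:190179375-190179714 had the best mean rank, 99.9 over the lists, with 55.5 and 79.2 tags per background tag in naive cells, 43.3 and 59.6 in R1, and 120 in each R2 library. A second DUX4 region, chr4:190181500-190181774, had 53.3 and 64.4 in naive cells, 43.6 and 51.2 in R1, and 82.3 and 86.8 in the R2 pair. Of their 31-base words, 97.6% and 91.6% occurred elsewhere in hg38. No peak lay within 1000 bp of the DUX4 start itself. Neither region passed a test of R1 or R2 against naive cells.

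The next strongest ends were tips with the repeat. The 10q tip (chr10:133786690-133787465) had 33.7 and 59.2 tags per background tag in naive cells, 34.9 and 46.2 in R1, and 175 and 125 in the R2 pair. The 12p tip (chr12:9977-10771), next to the DEAD-box pseudogene DDX11L8, had 32.8 and 51.8, then 24.4 and 33.9, then 198 and 171. The 22q tip (chr22:50807795-50808539), next to the ribosomal protein pseudogene RPL23AP82, had 37.6 and 54.0, then 22.4 and 35.9, then 129 and 157. At all 3 tips both R2 libraries stood above the other 4.

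The 17q tip (chr17:83247061-83247428) had 21.0 and 49.6 in naive cells, 25.7 and 41.6 in R1, and 98.8 and 151 in the R2 pair. The 1p tip (chr1:9927-10616) had 23.2 and 34.8, then 23.8 and 31.5, then 101 and 117. The 7p tip (chr7:9902-10260) had 26.2 and 36.3, then 20.5 and 29.1, then 111 and 90.1. The 1q tip (chr1:248945391-248946414), the tip with most copies of TTAGGG among the shared regions (106), had 21.0 and 42.9, then 20.9 and 38.1, then 167 and 171. In each of these tips the second naive and the second R1 library, the shallower of their pairs, exceeded the first.

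At 20p, whose sequence starts behind a gap of 60 kb, the strongest region (chr20:63815-67314) held no copy of the repeat. It had 34.5 and 41.4 in naive cells, 24.6 and 31.5 in R1, and 83.5 and 69.0 in the R2 pair.

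Regions on the telomere repeat ranked higher in R2 than in the other 4 libraries at every end where they could be compared. Of the 24 subtelomeric regions with the double repeat, 18 had a peak in all 6 lists, and in 18 of 18 both R2 libraries ranked above the other 4, against 9.66% of the 23968 regions shared by all lists. Their median tags per background tag were 19.9 and 32.6 in naive cells, 18.1 and 27.3 in R1, and 102 and 101 in the R2 pair. Of the 46 other shared subtelomeric regions, 9 had both R2 libraries on top, with medians of 12.0 and 15.2, 15.05 and 16.2, and 23.5 and 21.7. The 7 shared regions with the double repeat elsewhere in the genome had both R2 libraries on top in 7 of 7. Examples are chr3:198173093-198174149, outside the window, with 9.18 and 16.3, 5.92 and 7.54, and 47.0 and 50.1, and chr2:181275690-181276011, in the interior of the long arm, with 5.25 and 7.40, 4.66 and 6.26, and 22.3 and 22.3.

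**Figure D3:**
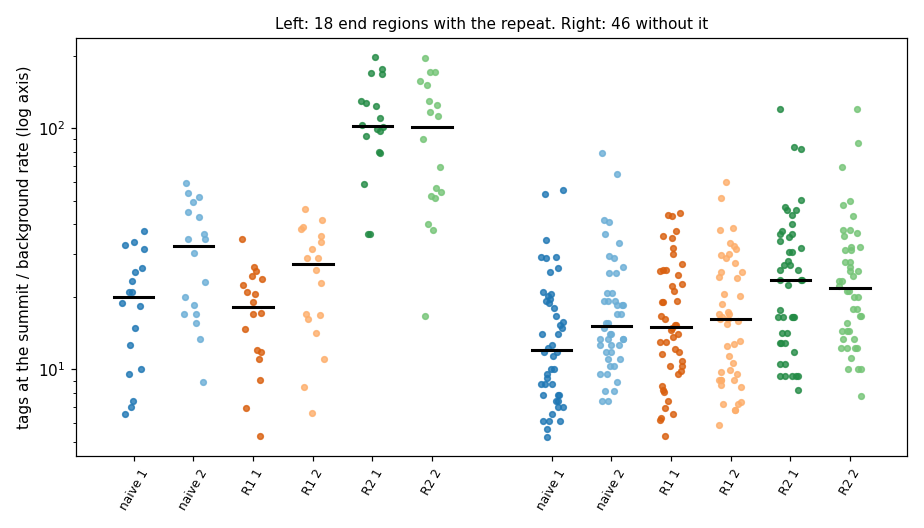
Tags at the summit per background tag (log axis) in each library for the 64 subtelomeric regions shared by all lists, 18 with the double telomere repeat (left) and 46 without it (right). Each point is a region, black lines are medians, and on the left the R2 medians of 102 and 101 lie above the highest median of the other 4 libraries, 32.6.

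The same regions also moved with depth. In the naive pair the shallower library ranked higher in 17 of 18 of them (50.9% of all shared regions) and in the R1 pair in 18 of 18 (49.7%), and the R2 libraries were the shallowest of all. The tag counts before division were also higher in R2. In 17 of the 18 regions both R2 counts exceeded both naive counts (1.06% of all shared regions), although the naive libraries were deeper. At the 3p tip, for instance, the counts were 22 and 23 in naive cells, 96 and 91 in R1, and 83 and 62 in the R2 pair. A peak list does not tell a more open repeat from a genome with more copies of it, or from reads of one end placed at another. The 18 regions hold the same repeat, so they cannot be counted as independent of one another.

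Normal scores of the rank were compared between populations with limma over all 23968 shared regions, so that differences are in SD units of rank. R2 against naive cells gave 8 higher and 0 lower of the 64 subtelomeric regions, where 1.36% and 0.409% of all regions were called. Of the 8, 7 were repeats at the 2q, 3p, 21q, 19q, 10p, 4p and 5p tips. The largest difference was 2.54 ± 0.38 (SE, adjusted p = 0.0218, limma) at the 2q tip (chr2:242183241-242183520), where tags per background tag were 7.43 and 13.3 in naive cells, 9.07 and 11.0 in R1, and 58.8 and 40.1 in the R2 pair. The 3p tip (chr3:9915-10912) differed by 2.43 ± 0.32 (adjusted p = 0.0185), from 9.62 and 17.0 in naive cells and 12.1 and 16.7 in R1 to 97.6 and 69.0 in R2. Both R2 values were above all others at these tips.

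The 21q tip (chr21:46699741-46700002) differed by 2.25 ± 0.31 (adjusted p = 0.0185), with 10.1 and 17.0 in naive cells, 11.8 and 14.2 in R1, and 104 and 51.2 in the R2 pair. The 19q tip (chr19:58607302-58607634) differed by 1.90 ± 0.24 (adjusted p = 0.0177), with 12.7 and 18.5, 14.7 and 16.9, and 78.8 and 54.5. The 10p tip (chr10:10203-10463) differed by 1.56 ± 0.28 (adjusted p = 0.0312), with 14.9 and 22.9, 11.1 and 16.2, and 92.9 and 52.3. The R1 values lay within or below the naive range at 10p and 19q.

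The 4p tip (chr4:9909-11392) differed by 1.49 ± 0.22 (adjusted p = 0.0218), with 18.4 and 19.98 in naive cells, 17.0 and 22.8 in R1, and 80.0 and 56.7 in the R2 pair. The 5p tip (chr5:11414-11664) differed by 1.16 ± 0.23 (adjusted p = 0.0410), with 25.4 and 30.3, 17.1 and 25.8, and 123 and 130. Without R2 library 1, R2 library 2 or naive library 1, limma called 0 of the subtelomeric regions in R2 against naive cells, with 27, 29 and 21 at an unadjusted p under 0.05, and without naive library 2 it called 5. With the log2 depth of each library as a covariate, chosen after seeing the data, limma called 0 of the 23968 regions in R2 against naive cells, and 7 of the 64 subtelomeric regions had an unadjusted p under 0.05. In that fit the median difference over the 18 repeat regions was 0.26 in place of 1.22, above 0 in 11 of 18, and that of the 3p tip was 1.29. Depth and population therefore cannot be told apart for these regions in R2 against naive cells.

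R2 was also compared directly with R1, a contrast added after seeing the data. It gave 20 higher and 0 lower of the 64 regions, where 4.19% and 1.19% of all regions were called, and 15 of the 18 repeat regions were among the 20. Without R2 library 1 limma called 7, with 6 of the repeat regions among them. The largest differences were 2.66 ± 0.51 (SE, adjusted p = 0.0184, limma) at the 15q tip and 2.60 ± 0.45 (adjusted p = 0.0120, limma) at the 13q tip. With the depth covariate 0 of the 64 were called, and 4 had an unadjusted p under 0.05.

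Some repeat regions were seen in R2 alone. The 7q tip (chr7:159335733-159335985) had a peak in both R2 lists, with 24.7 and 12.2 tags per background tag, and in no other list. A peak at the 4q tip, chr4:190204388-190204587, was in 1 R2 list. Conversely the repeat regions chr10:64172-64395 and chr19:58585825-58586676 had peaks in the 2 R1 lists alone.

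R1 against naive cells gave 3 higher and 6 lower of the 64 regions, where 4.92% and 5.83% of all regions were called. Without R1 library 1 limma called 0, with 9 at an unadjusted p under 0.05, without naive library 1 it called 2 and without naive library 2 it called 4. The lower regions were the 12p tip (-0.87 ± 0.22, adjusted p = 0.0369), the 22q tip (-1.02 ± 0.26, adjusted p = 0.0361), both 20p regions (-0.82 ± 0.18, adjusted p = 0.0213, and -0.89 ± 0.25, adjusted p = 0.0498), the DUX4 region chr4:190179820-190180076 (-0.99 ± 0.23, adjusted p = 0.0233) and a 16p region (-1.34 ± 0.28, adjusted p = 0.0167), all SE and from limma. At chr4:190179820-190180076 tags per background tag were 25.4 and 25.2 in naive cells, 16.1 and 17.3 in R1, and 43.5 and 32.3 in the R2 pair. The second 20p region, chr20:60043-63212 at the first sequenced base, had 18.8 and 28.9, 13.98 and 18.8, and 47.0 and 50.1. The 16p region chr16:83733-87694, which overlaps the 3′ ends of the DNA glycosylase gene MPG and of NPRL3, had 14.9 and 17.0, 8.18 and 8.65, and 14.1 and 14.5. At the latter both R1 values were below the other 4, whereas the 20p and 4q regions were lowest in R1 and highest in R2. The rest of chromosome 20 had shifted by 13.98 percentile points in R1, opposite in sign to the 20p regions.

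**Figure D4:**
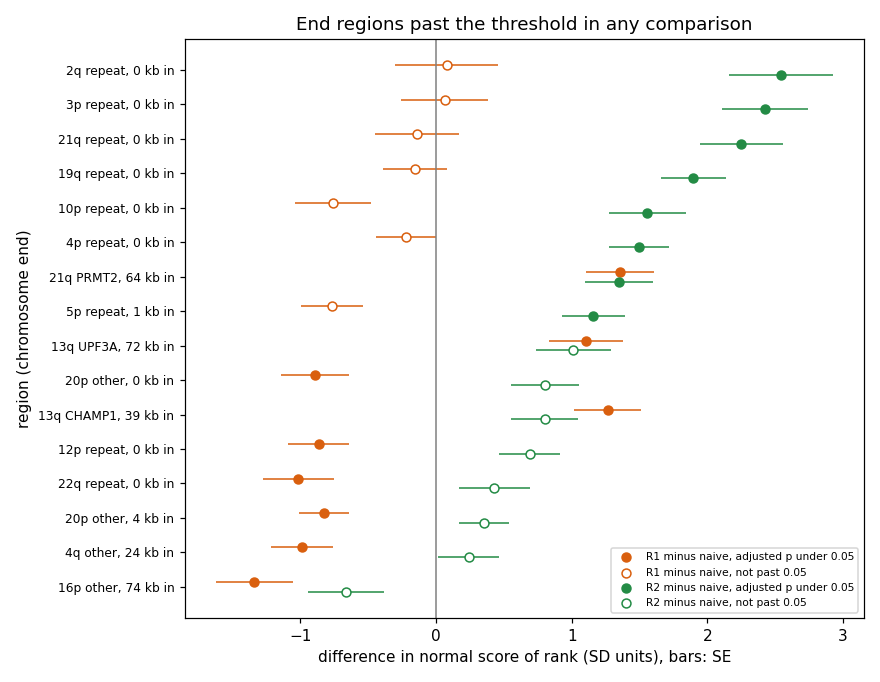
Difference in normal score of rank (SD units, bars are SE) of R1 (orange) and R2 (green) against naive cells for the subtelomeric regions past an adjusted p of 0.05 in any comparison with naive cells, filled where past the threshold. Repeat tips lie right of 0 in R2 up to 2.54, while the 3 promoters PRMT2, UPF3A and CHAMP1 lie right of 0 in both.

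The 3 subtelomeric regions called higher in R1 (4.69%, against 4.92% of all shared regions) were all promoters of protein-coding genes. PRMT2, an arginine methyltransferase at 21q (chr21:46635014-46636255), had 9.18 and 12.6 tags per background tag in naive cells, 25.8 and 23.9 in R1, and 28.2 and 25.6 in the R2 pair. It rose by 1.36 ± 0.25 in R1 (SE, adjusted p = 0.00991, limma) and by 1.35 ± 0.25 in R2 (adjusted p = 0.0329), the only subtelomeric region past the threshold in both. All 4 resistant libraries stood above both naive ones, while the rest of chromosome 21 had shifted by -1.89 points in R1 and 2.00 in R2.

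CHAMP1, which helps attach kinetochores to microtubules, and UPF3A, a nonsense-mediated decay factor, lie at 13q. CHAMP1 (chr13:114314094-114315403) had 11.8 and 19.2 in naive cells, 35.0 and 33.3 in R1, and 31.8 and 27.8 in the R2 pair, and rose by 1.26 ± 0.25 in R1 (SE, adjusted p = 0.0130, limma). UPF3A (chr13:114280953-114282658) had 9.62 and 14.1, 22.5 and 25.4, and 27.1 and 22.3, and rose by 1.10 ± 0.27 in R1 (adjusted p = 0.0320). The rest of chromosome 13 had shifted by 23.96 points in R1 and 26.1 in R2, and with each chromosome's median taken off, the adjusted p in R1 was 0.118 for CHAMP1 and 0.309 for UPF3A. PRMT2 kept an adjusted p of 0.00626 in R1 in that fit and had 0.0515 in R2.

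The mean of R1 and R2 against naive cells gave 7 higher and 1 lower of the 64 regions, where 3.85% and 3.21% of all regions were called. Without naive library 1 limma called 0, with 14 at an unadjusted p under 0.05, and without naive library 2, R1 library 1, R1 library 2 or R2 library 1 it called 2 to 4. These were the 3 promoters, the 2q, 3p, 19q and 21q tips, and the 16p region chr16:83733-87694 (-1.0025 ± 0.24, SE, adjusted p = 0.0392, limma). PRMT2 again led, at 1.35 ± 0.22 (adjusted p = 0.0114). As a group the shared subtelomeric regions had a median percentile rank among all shared regions of 64.3 and 71.5 in naive cells, 59.1 and 64.9 in R1, and 90.6 and 86.3 in the R2 pair. The resistant mean of 75.2 ± 15.6 (SD, n = 4) and the naive mean of 67.9 ± 5.11 (SD, n = 2) differed by 7.32 points (exact permutation test, two-sided, p = 0.6, with 0.0667 the smallest that 15 arrangements allow). The R1 values overlapped the naive values, and both R2 values lay above the other 4.

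Most protein-coding genes outside the copied families had a peak at a start, and most genes of the copied families had none. Of 163 GENCODE genes with a start in the windows, 32 were protein-coding, and 26 of these lay outside the duplicated families. For these genes only the transcript starts inside the windows were scored. Of the 26, 18 had a peak within 1000 bp of a start in all 6 lists, 8 in some and 0 in none. Of the 19079 protein-coding genes in the rest of chromosomes 1 to 22, 61.3% had one in all 6 lists and 10.8% in none, against 69.2% of the 26 in all lists, a difference of few genes that was not tested. Of 54 genes of families copied between ends, 3 had one in all lists, 8 in some and 43 in none. The median share of 31-base words found elsewhere was 97.2% around the starts of the family genes and 2.92% around those of the 26 genes, although RABL2B had 81.2% and IQSEC3 67.6%.

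**Figure D5:**
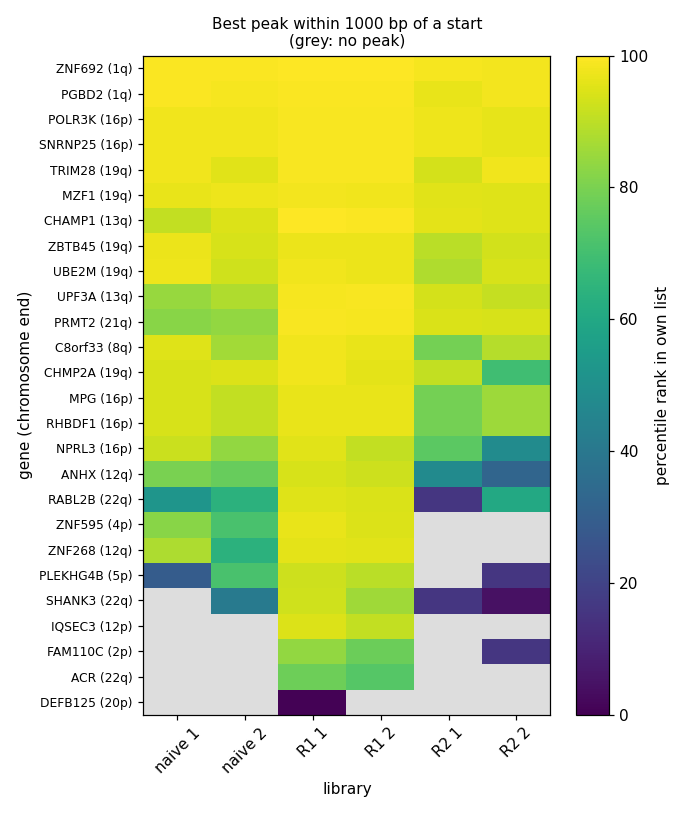
Percentile rank in its own list of the best peak within 1000 bp of a start for 26 protein-coding genes (rows, with the chromosome end) in 6 libraries (columns), grey where the list holds no peak. The upper 18 genes have a peak in every list, and IQSEC3, ACR and DEFB125 have peaks in R1 columns alone.

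The promoters with the best ranks lay at 1q, 16p and 19q. ZNF692, a zinc finger protein at 1q, had ranks of 99.3 and 99.3 in naive cells, 99.9 and 99.8 in R1, and 98.7 and 98.1 in the R2 pair. PGBD2, derived from a piggyBac transposase, had 99.3 and 98.5, 99.4 and 99.3, and 96.7 and 98.1. At 19q, TRIM28, the corepressor of KRAB zinc finger proteins, had 97.7 and 95.5, 99.2 and 98.8, and 93.7 and 97.9. The zinc finger gene MZF1 had a mean rank of 96.8 and its neighbor ZBTB45 94.7.

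Genes of general cell functions followed. POLR3K, a subunit of RNA polymerase III, and SNRNP25, a protein of the minor spliceosome, share a region at 16p (chr16:52872-54211) with ranks of 97.8 and 97.9 in naive cells, 98.97 and 99.1 in R1, and 97.6 and 96.5 in the R2 pair. UBE2M, the conjugating enzyme for NEDD8, had a mean rank of 94.5, C8orf33 90.6, the ESCRT-III subunit CHMP2A 90.4, and MPG and RHBDF1, which share a peak, 90.4. Ranks of genes are percentiles within lists of 67558 peaks (R2 library 1) to 340558 peaks (R1 library 1). Differences in them between populations therefore also depend on list length. The lowest ranks among the 18 were those of 3 genes. For NPRL3 the starts scored are internal ones, since the 5′ end of the gene (chr16:138677) lies outside the window. NPRL3, a GATOR1 subunit, had 92.1 and 83.7, 95.3 and 90.8, and 74.6 and 48.3, the homeobox gene ANHX 79.7 and 76.7, 93.9 and 92.3, and 47.8 and 32.5, and the small GTPase gene RABL2B 52.1 and 64.1, 94.9 and 94.4, and 15.6 and 60.5. The region at NPRL3 was the one shared region in which both R2 libraries ranked below the other 4 (11.0% of all regions did).

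The 8 genes with a peak in some lists had them in R1. The zinc finger genes ZNF595 at 4p and ZNF268 at 12q had peaks in both naive and both R1 lists and in neither R2 list. SHANK3, a postsynaptic scaffold gene at 22q, and PLEKHG4B had peaks in 5 lists and FAM110C in 3. The starts scored for SHANK3 are internal ones, since the gene begins at chr22:50674415, outside the window. IQSEC3 and the acrosin gene ACR had peaks in the 2 R1 lists, and the beta-defensin gene DEFB125 in 1. R1 was the deepest and R2 the shallowest population, but SHANK3 had a peak in both R2 lists and none in the deeper naive library 1, and FAM110C had one in R2 library 2 and none in either naive list. The part of depth in the missing peaks was not tested.

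In the copied families the 3 genes with a peak in every list were the pseudogene WASH3P and 2 genes annotated as long noncoding RNAs, DDX11L16 at 16p and RPL23AP7. A second DDX11L16 entry, at 15q, had no peak at a start in any list. None of the 5 FAM138, 6 MIR1302, 4 OR4F or 8 DUX4 family genes had a peak at a start in any list, and of the tubulin genes TUBB8 had one in 5 lists and TUBB8B in 2. OR4F genes encode olfactory receptors. FRG1, FRG2 and LINC00266 genes had no start inside the windows.

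Genes that maintain telomeres, none of which lies in the windows, had open promoters throughout. All 8 of the shelterin and telomerase genes examined held a peak in all 6 lists. Their ranks too are percentiles within lists of unequal length, so differences between populations also depend on list length. Mean ranks were 98.4 for POT1, which binds the single-stranded repeat, 97.8 for TERF1 and 94.5 for TERF2, which bind the duplex repeat, 95.7 for TINF2, 94.9 for ACD and 89.2 for TERF2IP. The telomerase reverse transcriptase gene TERT had the lowest, 86.3, with 86.1 and 80.7 in naive cells, 95.5 and 93.8 in R1, and 78.9 and 82.8 in the R2 pair, and the telomerase RNA-binding protein gene DKC1 had 95.2.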

How the data were processed

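Peaks were analysed from 6 lists, 2 libraries for each of naive, R1 and R2 cells. According to the methods, reads were aligned by the authors with BWA, duplicates were marked with Picard and removed with SAMtools together with reads of mapping quality 0, mitochondrial reads were dropped, read ends were shifted for the transposase, and peaks were called per library with MACS2. The submitters' processing notes give BWA 0.7.12-r1039, Picard 1.65, SAMtools 1.3.1 and MACS2 2.2.7.1. The methods name hg19 and the notes hg19 and hg38; the coordinates fit hg38, which was used with GENCODE annotation. For each peak the deposited columns give the fold, a ratio of pileup to background, and both significance values of the caller (p-value and q-value) as -log10.

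Adding 1 to the tag count and to the background rate and dividing gives the deposited fold, from which tags and relative depth were recovered. Tags per background tag is the tag count over that rate. Ranks followed the p-value, and ranking by fold gave the same order. Overlapping peaks were merged, and the regions present in every list received normal scores of their rank and were tested with limma 3.58.1 (trend, group only, Benjamini-Hochberg over 23968 regions, threshold 0.05). This test on ranks was checked on simulated data. Other tests were exact permutations over libraries, two-sided. The 31-base words were counted in hg38 on both strands. The members, gene lists and motifs were chosen with earlier results of these data known. Ends were named singly by number of peaks and best mean rank (a missing peak counts as 0), regions as the strongest of an end or past the limma threshold, genes by mean rank. The NPRL3 region, the regions seen in R1 or R2 alone, the widest region, the 2 repeat regions outside the windows, the copied-family genes with a peak and the 15q and 13q tips were named after their values were seen. Some of the marker genes and summit sequences examined are not reported here. Intervals on counts were not computed, since the lists hold called peaks only. Alternatives were other windows, a stricter q-value, the strongest 20000 peaks, other start distances, a fixed region set, chromosome medians, a replicate block, leaving out libraries and, added later, depth as a covariate. Analyses used Python 3.11.15, pandas and SciPy.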

Additional observations from a re-analysis of the deposited data

Results flagged for a closer look

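R1 and R2 differed from each other, by a test of the difference itself, in 20 of the 64 shared subtelomeric regions, in a limma contrast added after seeing the data, and in 7 without R2 library 1. Each was higher in R2. The differences in normal score, in SD units, at regions with the double telomere repeat were 2.66 at the 15q tip, 2.60 at 13q, 2.46 at 2q, 2.39 at 21q, 2.36 at 3p, 2.32 at 10p, 2.05 at 19q, 1.93 at 5p, 1.71 at 4p, 1.71 at 18p, 1.56 at 7p, 1.55 at 12p, 1.44 at 22q and 1.39 at 1p, and 1.30 at the interstitial 4q repeat chr4:190121096-190123143. At regions without the double repeat they were 1.77 and 1.23 at the DUX4 regions chr4:190178983-190179216 and chr4:190179820-190180076, 1.70 and 1.18 at the 20p regions chr20:60043-63212 and chr20:63815-67314, and 1.19 at chr16:80765-83616, within MPG. R1 was the deepest and R2 the shallowest population, and with depth as a covariate the median difference over the 18 repeat regions was -0.94 in place of 1.71, so depth and population cannot be told apart here. No library stood apart from the other 5 in the 4 measures compared over libraries.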

How the results depend on the processing

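The higher density and rank of subtelomeric peaks kept their direction in every alternative run, and p was 0.03125 in each with 6 libraries, but their sizes moved. The log2 density ratio ran from 0.62 within 50000 bp to 1.79 among the strongest 20000 peaks of each list, and the rank difference from 11.5 within 200000 bp to 30.4 within 50000 bp. Leaving out a library, which cannot give a p under 0.0625, gave a log2 density ratio of 0.73 to 0.95 and a rank difference of 15.7 to 18.2. The start share difference ran from -3.04 to 0.34 on leaving out a library and was 0.34 without R2 library 1 and 0.060 without R2 library 2. Among the strongest 20000 peaks of each list it was -27.1. The GC difference turned to -1.87 within 50000 bp, -0.20 at a -log10 q of at least 5, -4.56 among the strongest 20000 peaks and -0.047 without R1 library 1 (range 0.72 at most). The resistant minus naive rank kept its sign in every setting (4.44 to 15.7 on leaving out a library).

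Counts of called regions changed more. The fit reported tested 64 regions, against 31 within 50000 bp and 143 within 200000 bp. The region set of the first R2 list held 66, and leaving out a library gave 63 to 71. Changes in the counts below therefore include changes in the number tested. R1 against naive cells (9 in the fit reported) gave 3 within 50000 bp, 4 in the region set of the first R2 list, 0 with the depth covariate (14 with an unadjusted p under 0.05) and 0 to 7 on leaving out a library (0 without R1 library 1, 2 without naive library 1 and 4 without naive library 2). R2 against naive cells (8) gave 14 within 200000 bp, 0 with the depth covariate and 0 to 14 on leaving out a library, 0 without R2 library 1, R2 library 2 or naive library 1, 5 without naive library 2 and 14 without either R1 library. Their mean (8) gave 4 within 50000 bp, 16 within 200000 bp, 4 with chromosome medians taken off, 1 in the fixed region set and 0 to 7 on leaving out a library (0 without naive library 1, 2 without either R1 library, and 4 without naive library 2 or R2 library 1). R2 against R1 (20) gave 0 with the depth covariate and 7 to 23 on leaving out a library, 7 without R2 library 1. The mean of R1 and R2 against naive cells gave 7 with the depth covariate. With depth as a covariate the R1 differences reversed at the 12p tip (0.71), the 22q tip (0.58) and the 20p region at the first sequenced base (0.54). The sign of the R2 difference was positive in 18 of 18 repeat regions on leaving out any library. The replicate block gave 17 R2 calls, but same-numbered libraries did not deviate together (correlations 0.040, -0.013 and -0.0011), so the numbers do not pair the samples, and it is given only here. The cause of these changes was not tested. The shallow R2 lists limit what can be detected.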
